A study of Sus scrofa with 48 samples.

Results

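*PTGDS* encodes lipocalin-type prostaglandin D synthase, and it was examined here together with 9 other genes that make, break down or sense prostaglandins: *PTGS1*, *PTGS2*, *PTGES*, *PTGES2*, *PTGES3*, *PTGIS*, *HPGD*, *PTGER4* and *PTGFR*. Of these 10 genes, 9 had a probe on the array and all 9 kept at least 1 probe, out of 11129 named genes with a kept probe. *PTGER4* had no probe under that name. The array held 26 probes for the 9 genes, and 24 were kept, each detected by the scanner software (well above its local background) in 9 or more pigs of some group of 12. *PTGDS* was chosen by its measured fall on the high fat diet, so its difference between diets is given as a description without a test.

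The samples were subcutaneous adipose tissue from 48 growing Large White pigs aged 132 days, with 1 array per pig and 12 pigs in each of 4 groups. Pigs came from lines selected over generations for low residual feed intake (low RFI, efficient animals that eat less than predicted from growth and fatness) or high residual feed intake (high RFI, less efficient animals). Within each line they received either a diet rich in oils and fiber (HF) or a diet low in fat and rich in starch (LF). Because oil and fiber replaced starch together, the effects of more fat, more fiber and less starch cannot be told apart. The study reports that HF pigs also ate less, weighed less and had less fat, which cannot be separated from the diet here. All animals of a line share its selection history. All 6 adipocyte markers (*ADIPOQ*, *PLIN1*, *LPL*, *FABP4*, *CIDEC* and *LEP*) were well above background on the 48 arrays. Between 62.2% and 81.9% of probes were well above background on an array, and the group medians lay between 73.9% and 75.6%.

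Prostaglandins are made from arachidonic acid, which phospholipases and lipases release from membrane and stored lipids. The cyclooxygenases PTGS1 and PTGS2 turn it into prostaglandin H2, and terminal synthases turn that into prostaglandin D2 (PTGDS, HPGDS), E2 (PTGES, PTGES2, PTGES3), I2 (PTGIS), F2α (AKR1B1, FAM213B) or thromboxane (TBXAS1). In fat, prostaglandin E2 and I2 are known to act on lipolysis and on the differentiation of precursors, and prostaglandin D2 dehydrates to J-series products, some of which bind PPARγ. PTGDS is also a lipocalin, a secreted carrier of small lipophilic molecules such as retinoids.

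The probes are 60 bases long, and the array annotation gave none of them a genome position. The sequences below are those of probes that represent the D, I and E branches and the cyclooxygenase step, shown because each level reported here is the hybridization to such a 60-mer and not to the whole transcript. The *PTGS1* probe shown is the dim one, well above background on 30 of 48 arrays, whereas the brighter *PTGS1* probe A_72_P063591 was so on all 48.
PTGDS (A_72_P223832): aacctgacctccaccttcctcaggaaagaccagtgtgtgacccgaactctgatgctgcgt
PTGS1 (A_72_P360403): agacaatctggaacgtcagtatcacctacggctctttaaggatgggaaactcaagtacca
PTGIS (A_72_P082476): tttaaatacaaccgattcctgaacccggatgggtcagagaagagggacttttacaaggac
PTGES (A_72_P495640): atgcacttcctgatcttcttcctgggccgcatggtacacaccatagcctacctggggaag
PTGES2 (O9510): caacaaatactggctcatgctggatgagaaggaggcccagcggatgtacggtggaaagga

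The *PTGDS* 60-mer was spotted under 2 probe names, A_72_P223832 and O9061, so its 2 probes are repeat measurements and not independent evidence. Their log2 signals differed by 0.04 on average with an SD of 0.05 over the 48 arrays. This spot-to-spot difference was small against the SD of 0.71 between pigs of the same group. Both spots saw the same labelled RNA on 1 array, so it leaves out error from extraction, labelling and hybridization. No other probe on the array shared 25 or more bases with it on either strand. The 26 member probes held 22 distinct sequences. Pairs of spots with the same sequence also existed for *PTGFR* (SD of the difference 0.27), *PTGS2* (0.47) and *PTGS1* (0.69), so the spot-to-spot difference was larger for these dimmer probes.

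*PTGDS* was lower in HF than in LF pigs, in both lines and in both sets of arrays scanned on different dates. Levels are given as log2 signal relative to the array median. With probe O9061, LF high RFI pigs ranged from 2.99 through a median of 4.15 to 5.41, and LF low RFI pigs from 2.24 through 3.83 to 4.79. HF high RFI pigs ranged from 1.49 through 2.93 to 4.20, and HF low RFI pigs from 1.55 through 2.75 to 3.51. The groups overlapped, yet 9 of the 24 LF pigs lay above the highest HF pig and 7 of the 24 HF pigs lay below the lowest LF pig.

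**Figure D1:**
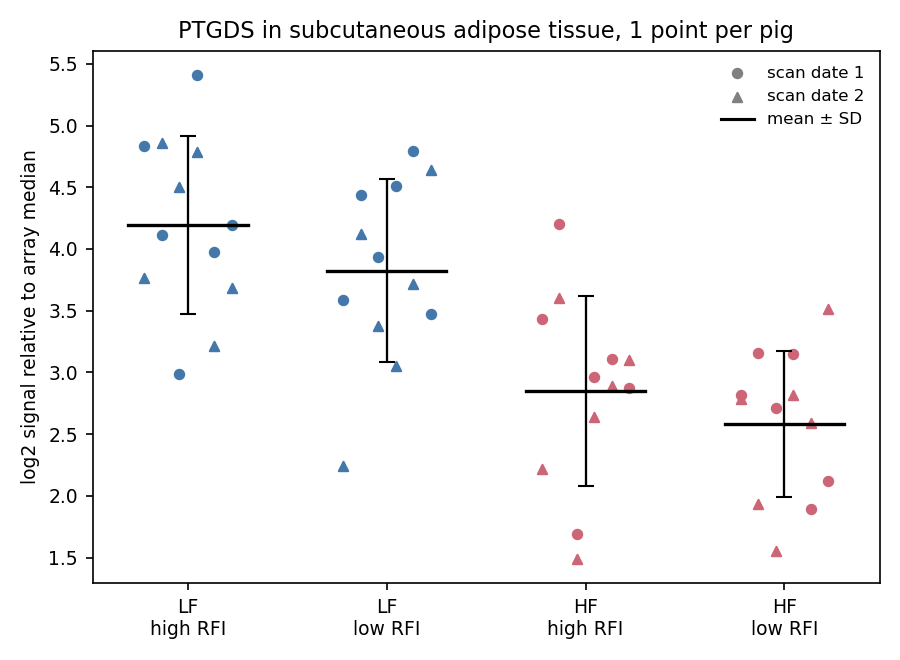
*PTGDS* (probe O9061) in each pig, as log2 signal relative to the array median, by diet and line. Points are pigs (circles, first scan date; triangles, second scan date), horizontal bars are group means and whiskers 1 SD (n = 12); the HF means of 2.85 and 2.59 lie below the LF means of 4.19 and 3.82.

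The mean of *PTGDS* was 2.72 ± 0.68 (SD, n = 24) in HF pigs and 4.01 ± 0.74 (SD, n = 24) in LF pigs, a log2 difference of -1.29 or 2.45-fold. The second probe name gave -1.28. Out of 44356 kept probes, these ranked 26th and 28th from the most negative diet difference. On each of the 6 slides, which held 2 pigs of every group, the HF pigs were lower, by log2 differences of -0.79 to -1.81. The difference was -1.34 with the first scan date alone and -1.24 with the second. Fewer cells that express *PTGDS* and less of its RNA per cell cannot be told apart in whole tissue.

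The spread of *PTGDS* within a group was wide. The highest and the lowest pig of a group differed by 1.96 log2 units in HF low RFI pigs and by 2.71 in HF high RFI pigs. The RFI lines overlapped: low RFI pigs averaged 3.20 ± 0.91 (SD, n = 24) and high RFI pigs 3.52 ± 1.0 (SD, n = 24). The line difference of -0.32 (95% confidence interval -0.71 to 0.08) did not pass the test (limma, adjusted p = 0.65). The diet difference did not differ detectably between lines either, with an interaction of 0.10 (95% confidence interval -0.68 to 0.89, limma, adjusted p = 1.0). That interval leaves room for a difference of more than 1.5-fold between lines in either direction.

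Among the 22 kept probes of the other 8 genes, 2 passed the study's cut-offs for diet in limma (raw p under 0.01, fold change over 1.1 and adjusted p under 0.08): the *HPGD* probe was higher and 1 of 5 *PTGES3* probes was lower in HF pigs. Over all 44356 kept probes, 13.1% passed, 5.61% higher and 7.44% lower in HF pigs. The median log2 fold change was -0.02 for the 22 probes and -0.02 for all kept probes.

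**Figure D2:**
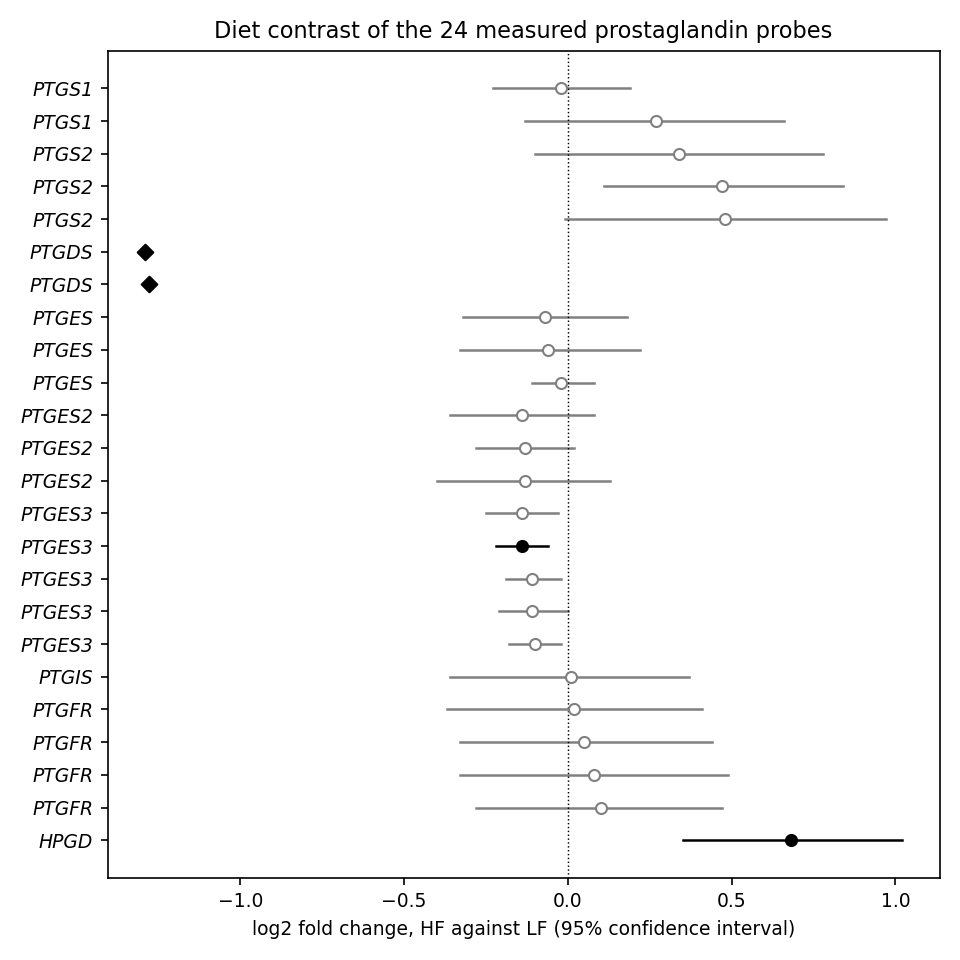
Log2 fold change of HF against LF pigs for the 24 kept probes of the 9 prostaglandin genes (points) with 95% confidence intervals (lines, drawn for the 22 probes outside *PTGDS*). Filled circles passed the cut-offs of the study; the diamonds are *PTGDS*, chosen for this difference and given without a test. The *PTGDS* probes lie at -1.29 and -1.28, *HPGD* at 0.68 and the others between -0.14 and 0.48.

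*HPGD* encodes 15-hydroxyprostaglandin dehydrogenase, which starts the inactivation of prostaglandins, and it rose in HF pigs, the only member to pass in that direction in the main setting. A *PTGS2* probe, described next, missed the cut-offs there and passed in 5 of 16 alternatives. The *HPGD* probe (A_72_P108016) ranged in LF high RFI pigs from -3.95 through a median of -3.49 to -2.92. In LF low RFI pigs it ranged from -4.87 through -3.55 to -2.28. HF high RFI pigs ranged from -3.49 through -2.90 to -1.57, and HF low RFI pigs from -3.68 through -2.94 to -1.65. The diets overlapped: 10 of 24 LF pigs lay below every HF pig, and 3 of 24 HF pigs lay above every LF pig. The log2 fold change was 0.68 (SE 0.17, 1.61-fold, limma, adjusted p = 0.00479), and HF pigs were higher on all 6 slides, by 0.30 to 1.2.

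The *HPGD* signal was dim, detected in 43 of 48 pigs (9 of 12 in LF low RFI and 10 of 12 in HF high RFI pigs), and its size depended on how background was treated. It was 0.31 from the median signal without background subtraction (adjusted p = 0.00535) and 0.19 after normexp correction (adjusted p = 0.0217). With either scan date alone it was 0.61 and 0.76 and missed the cut-offs (adjusted p = 0.127 and 0.0977). The line difference was -0.10 (95% confidence interval -0.43 to 0.24) and did not pass (limma, adjusted p = 0.939).

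The cyclooxygenases did not pass the cut-offs. For *PTGS2*, the inducible cyclooxygenase, probe A_72_P302784 had a median of -2.86 in HF low RFI (range -4.04 to -1.78), -2.98 in HF high RFI (-3.48 to -1.98), -3.66 in LF low RFI (-4.30 to -1.93) and -3.18 in LF high RFI pigs (-3.95 to -2.12). Only 2 HF pigs lay above every LF pig, and 3 LF pigs below every HF pig. The log2 fold change was 0.47 (95% confidence interval 0.11 to 0.84, limma, adjusted p = 0.0832), just outside the cut-offs. Its second spot gave 0.48 (95% confidence interval -0.01 to 0.97), and a probe that shares 55 bases with it gave 0.34 (95% confidence interval -0.10 to 0.78).

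Probe A_72_P302784 passed in 5 of 16 alternatives: under 75th percentile scaling (0.52, adjusted p = 0.0623), with slide (0.47, adjusted p = 0.049) or replicate number (adjusted p = 0.0445) as a block, with array weights (0.54, adjusted p = 0.0231), and without the array with the fewest detected probes (HF high RFI 2; 0.50, adjusted p = 0.0649), an alternative added after the data were seen. Its difference was 0.18 on the first scan date and 0.76 on the second. As a description, its level correlated weakly with the share of detected probes of an array (r = 0.281, rho = 0.31 over 48 arrays after removing group means). The same values were 0.254 and 0.31 for *PTGES2*, -0.29 and -0.236 for *AKR1B1*, -0.283 and -0.288 for *PLA2G12A*, and -0.262 and -0.302 for *ZADH2*. The part of this in their differences was not tested. For *PTGS1*, the constitutive cyclooxygenase, the brighter probe gave -0.02 (95% confidence interval -0.23 to 0.19) and the dim one 0.27 (95% confidence interval -0.13 to 0.66).

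The prostaglandin E synthases showed small differences. *PTGES3*, cytosolic prostaglandin E synthase and a cochaperone of HSP90, had 5 probes with log2 fold changes of -0.10 to -0.14, all lower in HF pigs. Probe A_72_P504374 passed: HF low RFI pigs ranged from 2.0 through a median of 2.22 to 2.50 and HF high RFI pigs from 2.04 through 2.26 to 2.38. LF low RFI pigs ranged from 2.18 through 2.38 to 2.56, and LF high RFI pigs from 2.18 through 2.35 to 2.68. Here 7 HF pigs lay below every LF pig and 5 LF pigs above every HF pig. Its fold change of -0.14 (SE 0.04, limma, adjusted p = 0.0131) sat at the fold limit, and 10 of 16 alternatives moved it outside the cut-offs. Probe A_72_P064521 (-0.14, adjusted p = 0.0799, raw p = 0.0116) missed and passed in 7 of 16 alternatives, among them slide as a block (adjusted p = 0.0145), scan date as a block (adjusted p = 0.0414) and the authors' table (adjusted p = 0.0463). Under 75th percentile scaling A_72_P504374 was at -0.10 (adjusted p = 0.11).

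*PTGES2*, a membrane-associated prostaglandin E synthase, had 3 probes between -0.13 and -0.14, and none passed. The adjusted p-values were 0.275, 0.442 and 0.567. *PTGES*, the inducible microsomal prostaglandin E synthase, had 3 probes between -0.02 and -0.07, with 95% confidence intervals that together spanned -0.33 to 0.22. The *PTGES* probe O1007 varied little, with SDs of 0.12 to 0.19 within the groups, and its interval was -0.11 to 0.08.

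For *PTGIS*, prostacyclin synthase, the log2 fold change was 0.01 (95% confidence interval -0.36 to 0.37), in spite of a wide range among pigs (-2.36 to 0.16 in HF high RFI pigs). *PTGFR*, the receptor of prostaglandin F2α, had 4 kept probes between 0.02 and 0.10, of which the brightest had a 95% confidence interval of -0.28 to 0.47. Pigs of 1 group differed by up to 2.86 log2 units at *PTGFR* (HF low RFI, probe A_72_P011151), so the data could not show a small diet difference there.

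The filter left out 2 member probes. *PTGS1* probe A_72_P360403 was just inside it, detected in 9 of 12 HF high RFI pigs and in 30 of 48 in all. *PTGS2* probe O10093 was just outside, detected in no more than 7 pigs of any group, as was *PTGS1* probe O9038, in no more than 5, although it has the sequence of A_72_P360403.

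None of the 24 member probes passed for line in limma or in the methods' analysis of variance, and 1 had a raw p under 0.05 (*PTGES2* probe A_72_P152101, -0.15, raw p = 0.0469, limma, adjusted p = 0.469). Over all kept probes 1.37% passed for line and 10.4% had a raw p under 0.05. None passed for the diet by line interaction in either analysis, none had a raw p under 0.05, and of all kept probes 0.0% passed and 1.04% had a raw p under 0.05. Within each line alone, none of the 22 probes outside *PTGDS* passed for diet in limma or in the methods' analysis of variance, and 7 (low RFI line) and 2 (high RFI line) had a raw p under 0.05. Of all kept probes, 3.04% passed in the low RFI line and 1.66% in the other, and 15.1% and 13.9% had a raw p under 0.05. *HPGD* was near the cut-offs in high RFI pigs (0.76, limma, adjusted p = 0.0963) and passed there in 7 of 16 alternatives, among them slide as a block (adjusted p = 0.0686), scan date as a block (adjusted p = 0.078) and the 75th percentile scaling (adjusted p = 0.0788). Its interaction of -0.15 (95% confidence interval -0.82 to 0.52) did not show its diet difference to differ between lines.

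Beyond the 9 genes, 38 genes around the pathway had a kept probe, from 52 listed symbols that include older and newer names of some genes. With the brightest kept probe standing for a gene, 7 of 38 were lower and none was higher in HF pigs by the same cut-offs. Over all kept probes 13.1% passed, 7.44% lower. The split depended on the scaling: at the 75th percentile 6 were lower and 2 higher, *APOM* (0.37, adjusted p = 0.0497) and *PLA2G4A* (0.24, adjusted p = 0.0689). The median log2 fold change was -0.05, against -0.02 over all kept probes. The 7 genes were *AKR1B1*, *FAM213B*, *TBXA2R*, *ZADH2*, *MGLL*, *LCN2* and *SOX9*. The lists were drawn up with earlier results of these data known. With the second scan date alone, *SOX9* was the 1 gene of the 38 that passed, beside 2.77% of all kept probes.

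**Figure D3:**
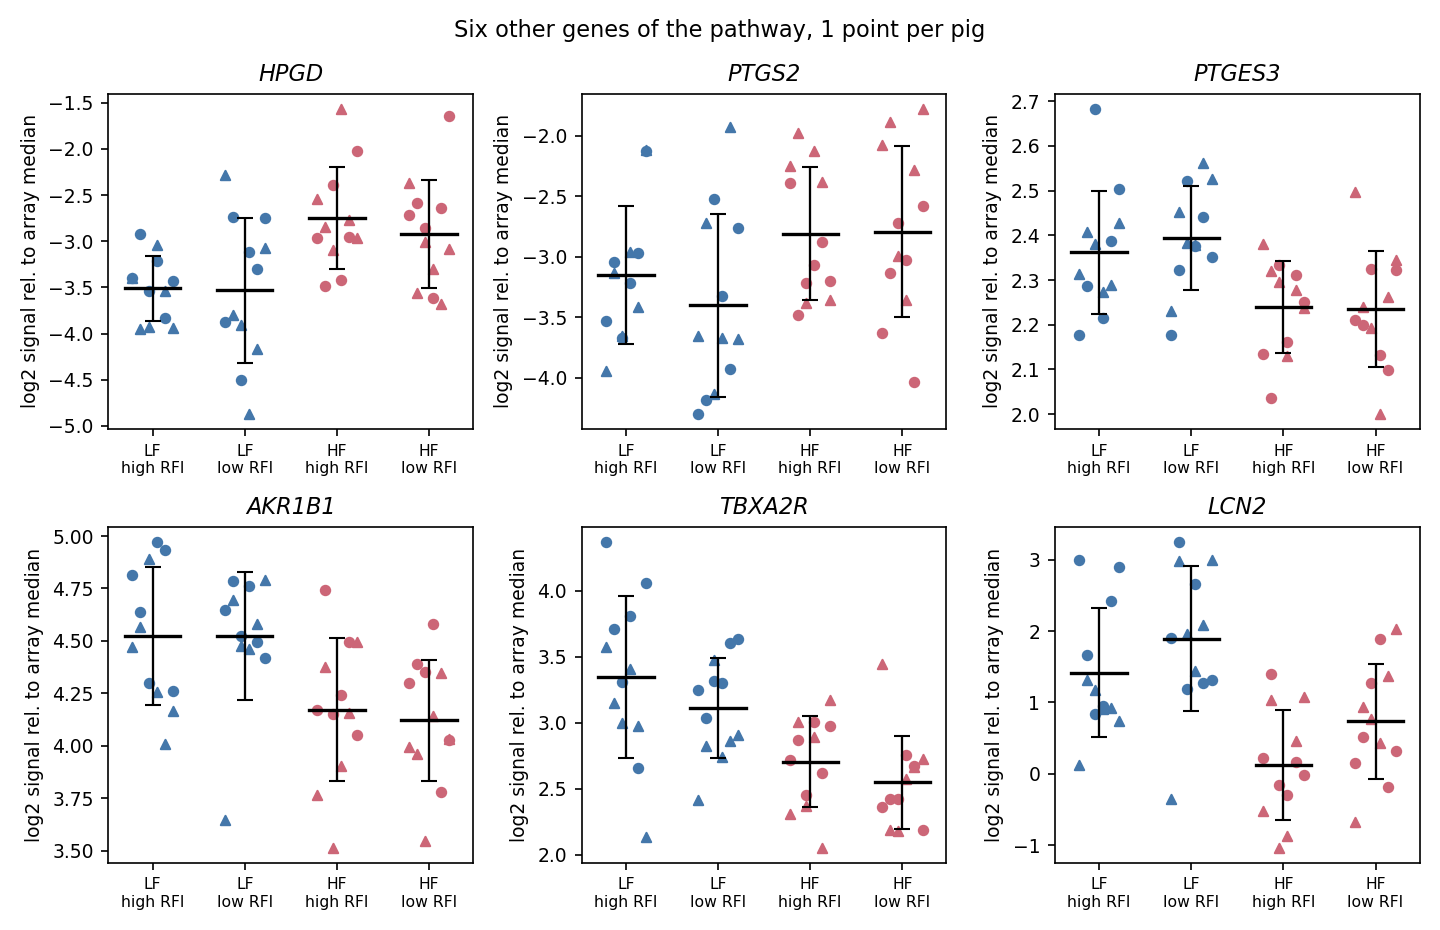
Log2 signal relative to the array median in each pig for *HPGD*, *PTGS2* (A_72_P302784), *PTGES3* (A_72_P504374), *AKR1B1*, *TBXA2R* and *LCN2*, by diet and line; each panel has its own scale. Points are pigs (circles and triangles, first and second scan date), bars and whiskers are mean and SD (n = 12). *HPGD* was higher in HF pigs and *AKR1B1*, *TBXA2R* and *LCN2* lower, with overlap between diets in every panel.

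Of the 5 other prostanoid synthases measured, the 2 prostaglandin F synthases *AKR1B1* and *FAM213B* fell. *AKR1B1*, an aldo-keto reductase that makes prostaglandin F2α, ranged from 3.51 through a median of 4.16 to 4.74 in HF high RFI and from 3.55 through 4.09 to 4.58 in HF low RFI pigs. In LF high RFI pigs it ranged from 4.01 through 4.52 to 4.97, and in LF low RFI pigs from 3.64 through 4.55 to 4.79. The log2 fold change was -0.38 (SE 0.09, limma, adjusted p = 0.00384), with 7 LF pigs above every HF pig, and its other 2 probes also passed (-0.37 and -0.34). *FAM213B*, which encodes prostamide and prostaglandin F synthase, fell by 0.26 (log2 fold change -0.26, SE 0.09, limma, adjusted p = 0.0406). It gave -0.37 on the first scan date and -0.15 on the second, where it missed the cut-offs. It also missed them under 75th percentile scaling (-0.22, limma, raw p = 0.0114) and with array position as a block (-0.24, limma, adjusted p = 0.13). *TBXAS1*, *CBR1* and *CBR3* did not pass (0.03, 0.17 and 0.04).

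Of 4 other receptor genes, *TBXA2R*, the thromboxane A2 receptor, fell. It had a median of 2.50 in HF low RFI (2.18 to 3.44), 2.79 in HF high RFI (2.05 to 3.17), 3.14 in LF low RFI (2.41 to 3.64) and 3.36 in LF high RFI pigs (2.14 to 4.37). The log2 fold change was -0.60 (SE 0.12, limma, adjusted p = 0.000868), and 8 LF pigs lay above every HF pig. The second probe gave -0.39 and also passed. The difference was -0.88 on the first scan date and -0.32 (adjusted p = 0.355) on the second. *PTGDR*, a receptor of prostaglandin D2, was at -0.30 (95% confidence interval -0.59 to -0.01, adjusted p = 0.184) with its brighter probe and at 0.00 (95% confidence interval -0.16 to 0.15) with the other. *PTGER3*, a receptor of prostaglandin E2, was at -0.14, and neither gene passed.

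Of 4 genes of transport and inactivation, *ZADH2*, which encodes a 15-oxoprostaglandin reductase, fell by 0.18 (log2 fold change -0.18, SE 0.05, limma, adjusted p = 0.0143). It missed the cut-offs under quantile normalization and with the second scan date alone. The transporter *SLCO2A1* was at 0.08 and did not pass. *PTGR1*, prostaglandin reductase 1, had 4 probes that disagreed. For diet they lay between -0.18 and -0.26, and 1 of 4 passed, not the brightest. For line, 3 of 4 were higher in low RFI pigs (0.35, 0.37 and 0.42, limma, adjusted p = 0.0505, 0.0326 and 0.0336), whereas the brightest was at -0.08.

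Of 7 genes of substrate release, *MGLL*, monoacylglycerol lipase, fell (-0.39, SE 0.11, limma, adjusted p = 0.0194), in 5 of 6 slides. It missed the cut-offs with either scan date alone. For line, *MGLL* was at 0.38 (limma, adjusted p = 0.0946) and did not pass in the main setting. *PLA2G4A*, the cytosolic phospholipase A2, was at 0.20 (95% confidence interval 0.02 to 0.38, adjusted p = 0.141). *PLA2G12A*, a secreted phospholipase A2, was the 1 gene of the 38 that passed for line. Its medians were 3.88 and 4.08 in HF and LF low RFI pigs and 3.53 and 3.66 in HF and LF high RFI pigs. The log2 fold change of low against high RFI was 0.43 (SE 0.09, limma, adjusted p = 0.0106). None of the 8 genes of the lipoxygenase and leukotriene arm passed for diet or line in limma. At their brightest probes none had a raw p under 0.05, while a dimmer *ALOX15* probe was at -0.22 for line (raw p = 0.03, limma). Their diet differences lay between -0.06 (*ALOX5AP*) and 0.17 (*CYSLTR1*).

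**Figure D4:**
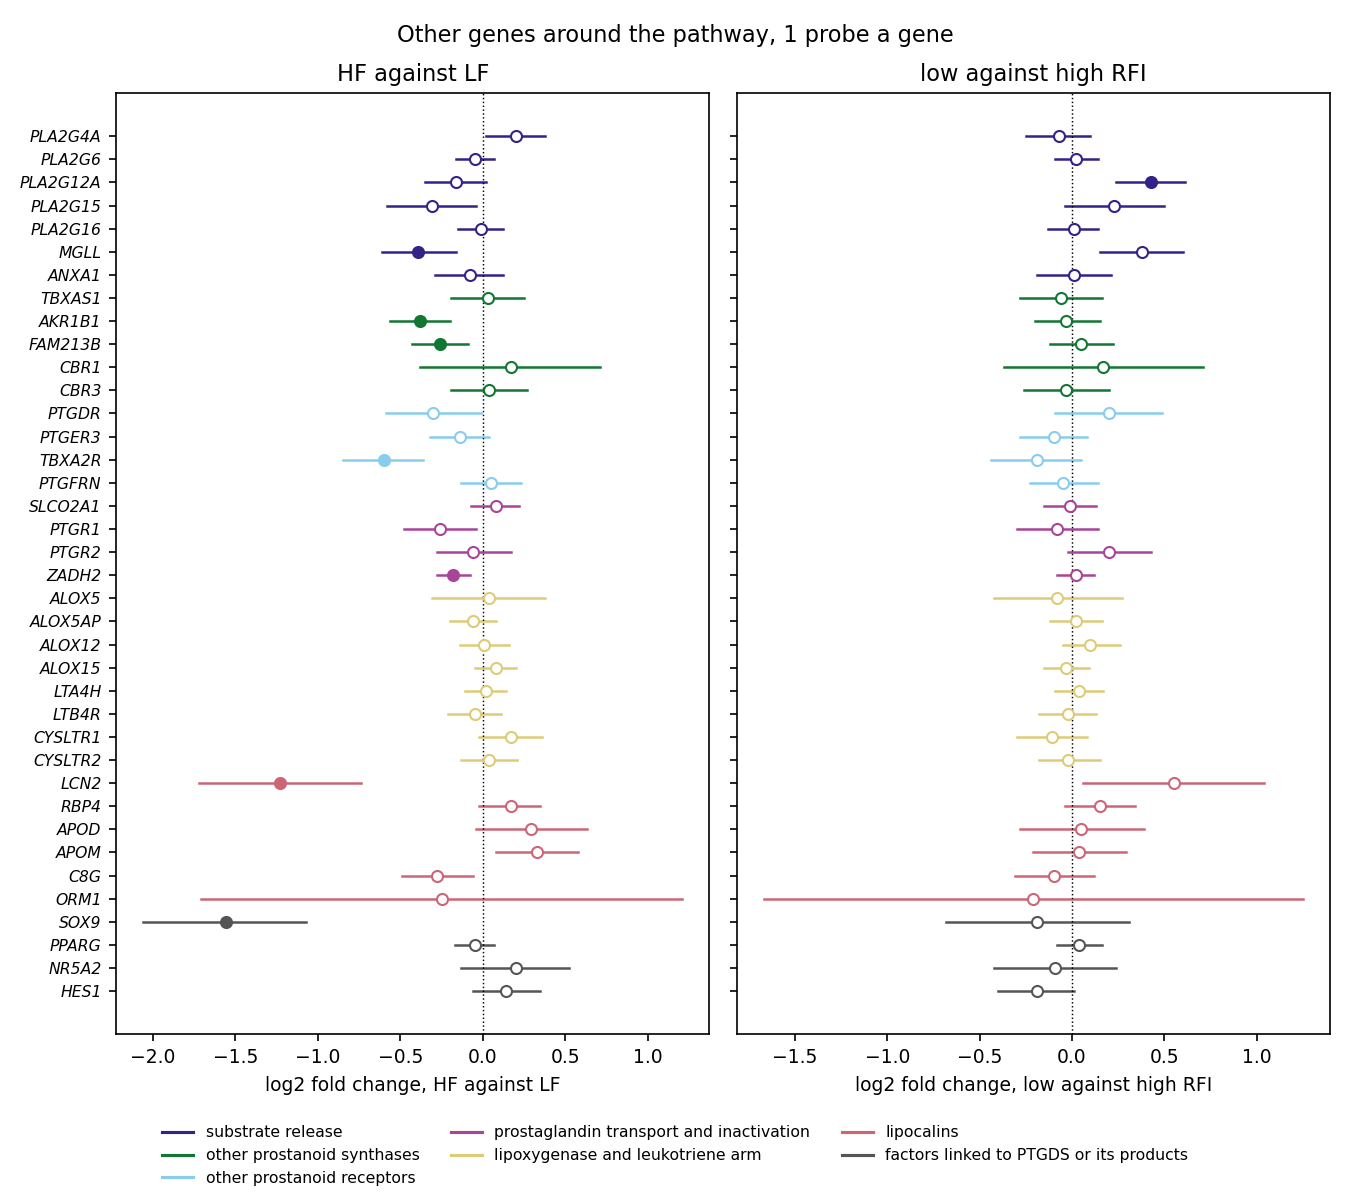
Log2 fold change of HF against LF (left) and of low against high RFI (right) with 95% confidence intervals for 38 genes around the pathway, 1 probe a gene, coloured by list. Filled points passed the study's cut-offs: 7 genes on the left, all below 0 (from *SOX9* at -1.56 to *ZADH2* at -0.18), and *PLA2G12A* at 0.43 on the right.

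Among 6 lipocalins, the family to which PTGDS belongs, *LCN2* fell. *LCN2* encodes neutrophil gelatinase-associated lipocalin, a siderophore-binding protein secreted by fat and immune cells. It had a median of 0.07 in HF high RFI (-1.03 to 1.39), 0.64 in HF low RFI (-0.67 to 2.03), 1.06 in LF high RFI (0.13 to 3.01) and 1.93 in LF low RFI pigs (-0.36 to 3.25). The log2 fold change was -1.23 (SE 0.24, limma, adjusted p = 0.000715), and its other 2 probes gave -1.24 and -1.25. It was -1.51 on the first scan date and -0.94 (adjusted p = 0.167) on the second. Low RFI pigs were at 0.55 above high RFI pigs (95% confidence interval 0.06 to 1.04, adjusted p = 0.389), which did not pass. *APOM* (0.33), *APOD* (0.29), *RBP4* (0.17), *C8G* (-0.28) and *ORM1* (-0.25) did not pass for diet. *C8G* passed with slide as a block (-0.28, adjusted p = 0.0541) and with array weights (-0.29, adjusted p = 0.0331). *APOD* was at 0.57 and passed with the first scan date alone (adjusted p = 0.0482) and was at 0.01 with the second. With array weights *APOD* (0.42, limma, adjusted p = 0.052) and *APOM* (0.39, limma, adjusted p = 0.0124) passed. *APOM* also passed without the array with the lowest share of detected probes.

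*SOX9*, a transcription factor known to drive *PTGDS* in the developing gonad, was at -1.56 (SE 0.25, limma, adjusted p = 5.05e-05) and fell in all 6 slides. Over the alternatives *SOX9* lay between -0.95 (normexp background correction) and -1.73 (array weights). The list that holds *SOX9* was drawn up with earlier results of these data known, so its adjusted p is no independent support. *PPARG*, whose product binds J-series prostaglandins, was at -0.05 (95% confidence interval -0.17 to 0.07), and *NR5A2* and *HES1* were at 0.20 and 0.14, all without passing.

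Markers of the cell types that adipose tissue holds were read beside these differences. Of 6 adipocyte markers, *LEP* passed (-0.67, adjusted p = 0.00494), 3 had a raw p under 0.05 in limma and the median log2 fold change was -0.09. Their summed level, in units of the array median, ranged from 1770 to 2480 in HF and from 1780 to 2550 in LF pigs. Of 6 fibroblast markers, *PDGFRA* passed (0.31, adjusted p = 0.0661), 2 had a raw p under 0.05 in limma and the median was 0.18. None of the 33 measured markers of macrophages, mast cells, endothelium, smooth muscle, lymphocytes, keratinocytes, skeletal muscle and blood passed in limma, and 2 had a raw p under 0.05, against 25.5% of all kept probes. The mast cell genes *CPA3*, *FCER1A* and *TPSB2* had no kept probe. The part of these markers in the differences above was not tested.

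Pigs of the same group that differed in *PTGDS* also differed in other transcripts. After the 4 group means were removed, the genes most like *PTGDS* among 11128 others over the 48 arrays were sought, with the probe of the highest absolute r standing for a gene. The closest was probe O1964, which the array files assign to *IRAK2* (r = 0.963, rho = 0.961), followed by *SHISA4* (r = 0.771), *TMEM205* (r = 0.762), *PEBP1* (r = 0.753) and *SNRNP25* (r = 0.746). The most opposed were *CAMKK2* (r = -0.636), *RNASE4* (r = -0.598) and *STAT6* (r = -0.592). Other probes of *CAMKK2* were at -0.456 and -0.338, and those of *STAT6* at -0.465 and 0.0548. These values describe arrays that share slides and scan dates, and the median r over all genes compared was 0.0598.

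*AKR1B1* was the pathway gene most like *PTGDS*, with r = 0.739 and rho = 0.678 (0.664 and 0.776 within the scan dates), and 7 genes lay above it. *LCN2* had r = 0.545 and *TBXA2R* r = 0.438. Among the other members the highest value was that of *PTGES2* probe A_72_P152101 (r = 0.463, rho = 0.38). *CIDEC*, a lipid droplet protein of adipocytes, had r = 0.743 and *LEP* r = 0.497. The brighter *PTGS1* probe ran opposite (r = -0.514, rho = -0.448) and so did *LTA4H* (r = -0.561), whereas *HPGD* had r = -0.0769 and *SOX9* r = 0.255.

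**Figure D5:**
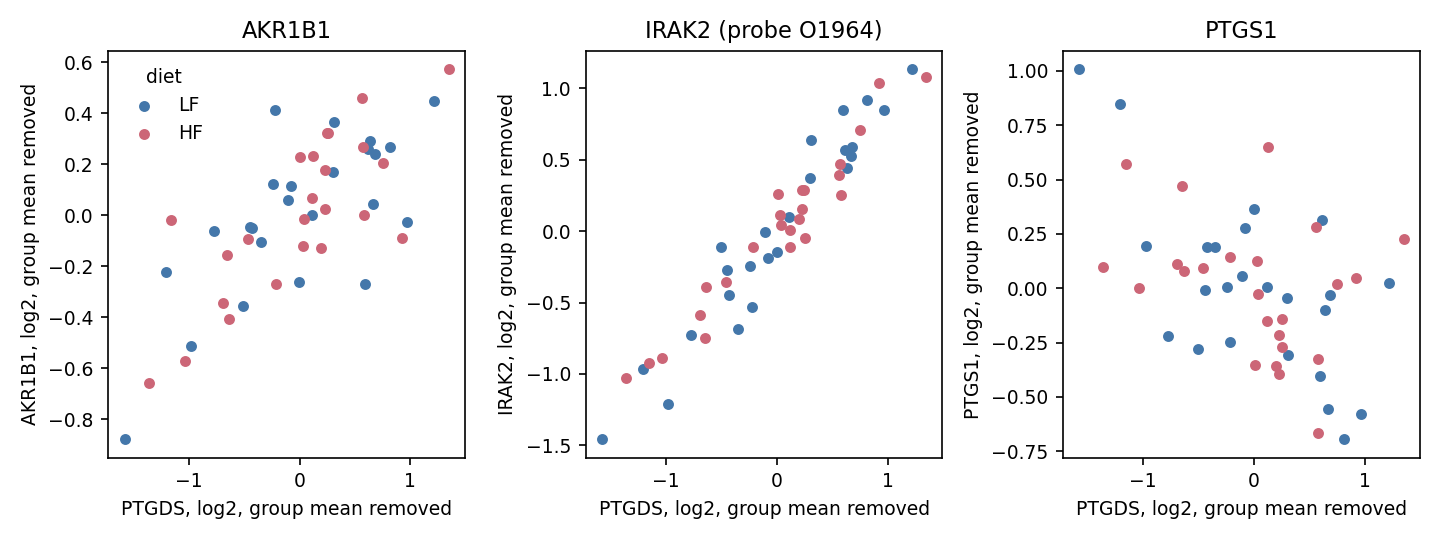
Log2 levels of *AKR1B1*, probe O1964 (assigned to *IRAK2*) and *PTGS1* (A_72_P063591) against *PTGDS* (O9061) with the group means removed; each point is a pig, coloured by diet (n = 48). Pearson's r is 0.739, 0.963 and -0.514.

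The likeness of *IRAK2*, a kinase of interleukin-1 receptor signalling, held for 1 of its 2 probes, and which transcript that probe measures was not settled here. Probe O1964 differed between diets by -1.31, with means of -0.36 ± 0.57 (SD, n = 24) in HF and 0.95 ± 0.72 (SD, n = 24) in LF pigs. The other *IRAK2* probe, A_72_P262227, had r = 0.303 and a diet difference of -0.11. The sequence of O1964 is printed to let it be compared with the *PTGDS* 60-mer above, with which its longest shared run on either strand was 6 bases.
IRAK2 (O1964): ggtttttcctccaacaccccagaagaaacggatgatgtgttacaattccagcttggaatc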

How the data were processed

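Each array was hybridized with Cy3-labelled RNA of 1 pig and quantified by the authors with Agilent Feature Extraction, and the deposited scanner files give the intensity of every spot. A series table deposited by the authors holds log2 of the median signal minus the array median for 38987 probes, and was used as an alternative. The submitters' processing notes name R 2.10.0.

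Here, log2 of the background-subtracted intensity was centred on the median of kept probes of each array, leaving out control and flagged spots. The number of arrays limits the precision. Probes were named from the files' gene names, accessions and gene numbers with RefSeq names of assembly Sscrofa11.1 (27371 of 60305 probes). Diet, line and interaction were fitted with limma 3.58.1 in R 4.3.3 over 44356 kept probes and 48 arrays, with p-values adjusted by Benjamini-Hochberg over all of them and the study's cut-offs for calls. The fit was tested on simulated data. Tables were made with Python and pandas. The labels do not say whether pigs shared litters.

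Members and lists were chosen with earlier results of these data known. Named were all kept member probes, pathway genes that passed or exemplify a role, and the 5 genes with the highest and 3 with the lowest correlation with *PTGDS*. Other scalings, filters, blocks and scan dates (15 settings, and 1 added after the data were seen) were also computed. One marker list is not reported here.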

Additional observations from a re-analysis of the deposited data

How the results depend on the processing

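The *PTGDS* diet difference stayed between -1.38 and -1.19 over the 16 alternatives. No member probe passed for line or interaction in any of them. The counts of member probes inside the cut-offs for diet include the 2 of *PTGDS*, chosen for this difference, which support nothing. The count of 4 became 2 with the first scan date alone and 2 with the second, which hold fewer samples, by losing *HPGD* and *PTGES3*. Within low RFI pigs the count of 2 went to 0 with array position as a block, to 6 with array weights, and to 0 with the first and 0 with the second scan date alone. With slide or replicate number as a block it went to 3, by adding *PTGES3* probe A_72_P504374. Within high RFI pigs it went to 0 with either scan date alone, and to 3, by adding *HPGD*, in 7 alternatives. The 7 pathway genes that passed for diet became 12 with array weights (9 lower and 3 higher) and 1 with the second scan date alone. Over all kept probes, 13.1% passed for diet in the main setting and 17.6% with array weights. With the first and second scan date alone it was 5.43% and 2.77%. The 1 pathway gene that passed for line became 2, by adding *MGLL*, with slide, scan date or replicate block and with array weights. The count also became 2 without the array with the lowest share of detected probes, and 0 with either scan date alone. Over all kept probes, 1.37% passed for line in the main setting and 1.31% to 4.05% where the count was 2. With the first and second scan date alone it was 0.958% and 0.00225%. Apart from the scan dates, the cause of these changes was not tested.

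Signs turned only for differences that had not passed. With the first scan date alone these were *PTGES* (0.12, 0.10 and 0.03), *PTGFR* (-0.02, 0.00 and -0.08), *PTGIS* (-0.11), *PTGS2* probe A_72_P443218 (-0.03) and the *PTGDS* interaction (-0.28, and 0.00 with array position as a block). With the second alone they were *PTGES2* probe O9510 (0.01) and *PTGS1* (0.05). Scaling turned *PTGES* O1007 (0.03 at the 75th percentile, 0.00 with normexp), *PTGS1* (0.02 at the 75th percentile) and a *PTGFR* spot (0.00 with quantile normalization), and array weights turned *PTGES* A_72_P177991 (0.03).

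Replicate numbers are shared by the groups. Of 72 same-numbered pairs, 48 had a correlation of their deviations over 0.1 (-0.193 to 0.449) and 72 shared a slide. Since not every pair reached 0.1, the numbers were not taken as a pairing, and the main fit held no block. That does not show the arrays to be independent. The same-numbered pairs had a median of 0.159, against 0.0849 for other-numbered pairs on 1 slide and -0.0345 on other slides. Over all kept probes, 13.1% passed for diet in the main setting, 15.5% with slide and 16.1% with replicate number as a block. With the replicate block, 6 member probes passed for diet, adding *PTGS2* A_72_P302784 and *PTGES3* A_72_P064521, 8 pathway genes passed for diet (adding *APOM*, 0.33), *HPGD* passed within high RFI pigs (adjusted p = 0.054), and *PTGES3* A_72_P504374 within low RFI pigs. For line, 2 pathway genes passed. The *PTGDS* difference was -1.29.

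Signal over background limits *HPGD*, *PTGS2* and the dim *PTGS1* probe, whose repeat spots differed most.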
